A study of Mus musculus with 18 samples.

Results

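The genes described here are 44 interferon-stimulated genes, a named list of genes whose transcription is raised by interferons, looked up by symbol in gene tables of 24505 entries. Each of the 44 symbols matched 1 entry. The RNA came from E14Tg2a mouse embryonic stem cells, either the wild-type parental line or a derived line without a functional Daxx gene (Daxx-/-, called Daxx-null below). Daxx is a histone chaperone that works with Atrx to place the histone variant H3.3. Each genotype was grown in 3 cultures with n = 3 libraries a group, 18 in all: serum plus LIF, the cytokine leukaemia inhibitory factor, at 1000 units/mL; 2i plus vitamin C at 100 µg/mL, labelled ground state and called 2i below; and retinoic acid, in which serum cells spent 24 h without LIF and then 4 days with 10 µM retinoic acid. The labels name 1 Daxx-null line and do not say how many clones it stands for, so what else differs between the 2 lines and the loss of Daxx itself cannot be told apart. They call the replicates independent without saying how they were separated, and p-values measure the spread between these libraries.

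Interferons are secreted proteins that cells release on infection. Type I interferons bind the receptor of Ifnar1 and Ifnar2, the kinases Jak1 and Tyk2 pass the signal to transcription factors, and a complex with Stat2 and Irf9 binds the interferon-stimulated response element (ISRE). Interferon gamma binds Ifngr1 with Ifngr2, and its signal acts through the gamma-activated sequence (GAS). The induced genes encode proteins that bind viral RNA, block virus entry or release, modify proteins and restrain the signal itself. Pluripotent stem cells are known for a weak interferon response, while some of these genes, the Ifitm family among them, are expressed in them without interferon.

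Values are FPKM (fragments per kilobase of transcript, scaled to depth) as the authors scaled them, by inference about 10 times a conventional FPKM. Depth, recovered from the steps between low values, ran from 84.2 to 141.7 M counting units a library (1 M is 1000000), and 1 unit in a transcript of 1 kb was worth 0.0706 to 0.119 FPKM. Of the members' values 41, in 16 genes, were 0, which allows up to 0.046 to 0.346 FPKM (3 units in that library, counting error only). Daxx (NM_007829, mm9 chromosome 17, 34046390 to 34052535, plus strand) was 54.4 to 73.7 FPKM in the Daxx-null libraries and 238 to 434 in wild type, and since the deleted stretch is not given, the remaining reads do not measure intact transcript. The summed level of 8 pluripotency markers was 20490 to 27620 FPKM in serum and wild-type 2i libraries, 8575 to 16710 in Daxx-null 2i and 558.9 to 922.7 in retinoic acid.

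Several libraries stood apart. Wild-type 2i replicate 3 lay below both sister libraries for 39 of the 44 members, against 57.35% of all genes tested, and 2i counts and folds are therefore given with and without it. Daxx-null 2i replicate 2 lay above both sisters for 33 members, against 39.28% of all genes, and it had the lowest pluripotency sum (8575 FPKM against 16710 and 14210 in replicates 1 and 3). Its sum of 9 retinoic acid and neural markers was 1955 FPKM against 426.8 and 404, and that of 8 fibroblast markers 409.4 against 73.34 and 74.12. The summed level of 4 Y-linked genes, looked at after their values had been seen, was 155.8 to 359.3 FPKM in wild type, 183.3 to 244.7 in Daxx-null 2i and 1.283 to 2.739 in Daxx-null serum and retinoic acid. Loss of Y-linked RNA and the Daxx genotype cannot be told apart in serum and retinoic acid, and the Daxx-null 2i libraries differ from the other Daxx-null libraries in this respect.

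Promoters were searched for the ISRE and the GAS, sequences through which interferons are known to induce genes. RefSeq promoters (GRCm38.p6, 250 bases before to 50 after the start site) were found for 33 members, 40 promoters in all. Those not matched were Gbp4, Gbp6, Iigp1, Mx1, Mx2, Oas1b, Oas2, Parp14, Parp9, Rtp4 and Usp18. An ISRE core, taken as a pair of GAAA runs with 2 bases of any kind between them and searched on both strands, was in 19 of the 33 members (57.6%), against 3.99% of all 27025 genes with a promoter in the table. By promoter it was in 47.5% of the 40 and 3.44% of all 32851. A GAS core, TTCNNNGAA, which reads the same on both strands, was in 10 of 33 members (30.3%), against 9.55% of genes, and in 25% of member promoters against 8.3% of all. Both cores were present in 5 members and at least 1 core in 24. The stretches below run from 20 bases before the first core to the base before the start site, 5′ to 3′ on the gene's strand, with the cores in capitals. Adjoining capitals are cores that overlap.

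Isg15, Ifit1, Rsad2, Gbp2 and Cxcl10 are shown as members with an ISRE core whose RNA was higher in Daxx-null 2i cells.
Isg15: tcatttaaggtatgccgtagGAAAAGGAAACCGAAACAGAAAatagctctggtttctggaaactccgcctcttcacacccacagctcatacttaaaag
Ifit1: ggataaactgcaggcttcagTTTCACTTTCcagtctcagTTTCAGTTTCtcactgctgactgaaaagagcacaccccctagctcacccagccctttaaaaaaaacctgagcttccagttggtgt
Rsad2: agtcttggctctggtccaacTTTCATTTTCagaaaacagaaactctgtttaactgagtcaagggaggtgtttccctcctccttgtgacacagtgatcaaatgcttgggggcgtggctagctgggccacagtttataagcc
Gbp2: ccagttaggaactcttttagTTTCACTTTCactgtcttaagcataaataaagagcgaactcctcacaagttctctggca
Cxcl10: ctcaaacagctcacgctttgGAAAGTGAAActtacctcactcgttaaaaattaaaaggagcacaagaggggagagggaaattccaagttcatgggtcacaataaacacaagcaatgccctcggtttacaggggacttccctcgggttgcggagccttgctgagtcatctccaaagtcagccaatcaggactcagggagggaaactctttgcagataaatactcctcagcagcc

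The Isg15 stretch (chr4:156200819-156200916, minus strand) holds 3 overlapping ISRE cores, the first at -78 from the start site. The Ifit1 stretch (chr19:34640765-34640888, plus strand) holds 2, at -104 and -85 and both read on the opposite strand. The others hold 1 each: Rsad2 (chr12:26456453-26456592, minus strand), Gbp2 (chr3:142620584-142620662, plus strand) and Cxcl10 (chr5:92348890-92349122, minus strand), at -120, -59 and -213.

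Bst2 is shown because it carries both cores and moved in opposite directions in serum and 2i, and Irf1 and Irf8 because they carry only the GAS core and Irf1 was called higher in 2i and Irf8 was not.
Bst2: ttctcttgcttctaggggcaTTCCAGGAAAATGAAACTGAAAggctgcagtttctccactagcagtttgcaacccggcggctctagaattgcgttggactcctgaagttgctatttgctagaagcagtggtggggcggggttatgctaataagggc
Irf1: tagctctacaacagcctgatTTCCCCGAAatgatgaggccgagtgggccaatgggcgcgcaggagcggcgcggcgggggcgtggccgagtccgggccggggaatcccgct
Irf8: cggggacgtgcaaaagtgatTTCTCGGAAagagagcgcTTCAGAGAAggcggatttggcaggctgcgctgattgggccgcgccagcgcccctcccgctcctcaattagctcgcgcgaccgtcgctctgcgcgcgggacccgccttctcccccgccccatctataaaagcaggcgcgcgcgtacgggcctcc

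In Bst2 (chr8:71537473-71537628, minus strand) a GAS core at -136 overlaps the first of 2 ISRE cores, at -130 and -124. Irf1 (chr11:53769904-53770013, plus strand) has a GAS core at -90 in 1 of its 2 listed promoters, and Irf8 (chr8:120736167-120736357, plus strand) has GAS cores at -171 and -153 in 1 of 2. Of the 25 matched members called higher in Daxx-null 2i cells, 15 had an ISRE core and 7 a GAS core, and of the 8 matched members not called, 4 and 3 did. A match to letters is a description and not a test of binding, and no match says only that these letters are not in the window.

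Across the 6 groups the members were most abundant in Daxx-null 2i cells. The mean FPKM was highest there for 38 of 44 members, in wild-type serum for Irf8, Ifitm1, Ifitm2 and Oas3, in Daxx-null serum for Ifitm3 and in wild-type 2i for Oas1a. The lowest mean was in Daxx-null retinoic acid cells for 27 and in Daxx-null serum cells for 11. The share of all genes with the same highest or lowest group was not computed. Of the 38, 7 passed the low-value filter given below only through Daxx-null 2i, so the filter favoured a high level there. The median member stood at 55.58, 81.16 and 60.28 FPKM in the 3 Daxx-null 2i libraries and at 18.35, 17.63 and 2.941 in wild-type 2i. In serum it was 11.82, 10.56 and 5.892 in wild type and 3.902, 4.918 and 4.216 in Daxx-null, and with retinoic acid it was 2.285, 2.546 and 3.541 in wild type and 1.324, 1.046 and 0.985 in Daxx-null. The genotypes' libraries did not overlap in this median in any of the 3 cultures: Daxx-null was above wild type in 2i and below it in serum and in retinoic acid. Fewer cells with a gene on and less RNA per cell cannot be told apart in these bulk libraries.

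**Figure D1:**
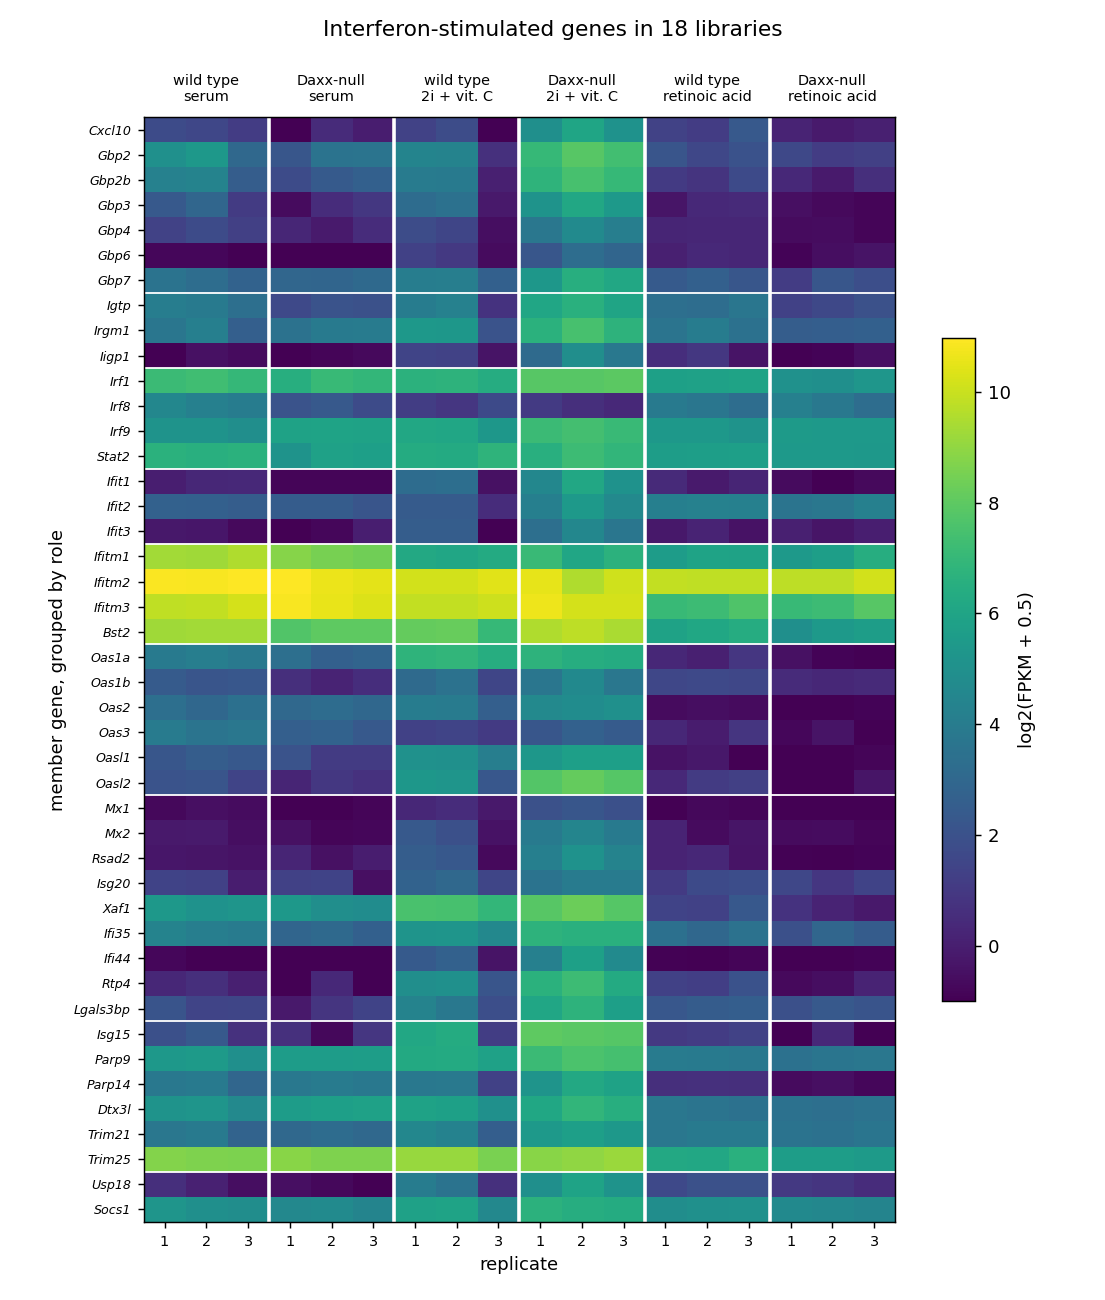
Heat map of log2(FPKM + 0.5) for the 44 members (rows, in role groups divided by white lines) in the 18 libraries (columns, replicates 1 to 3 of each group). Most rows are brightest in the 3 Daxx-null 2i libraries, and wild-type 2i replicate 3 is darker than replicates 1 and 2 for 39 rows.

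Genotypes were compared in each culture with limma on log2(FPKM + 0.5), in 1 fit of all libraries over 18002 genes, and genes with a Benjamini-Hochberg adjusted p under 0.05 were counted as called. Fold changes are Daxx-null minus wild type on that log2 scale, which understates changes of low genes, and a gene is said to rise or fall where its Daxx-null level was called above or below wild type of the same culture. In 2i, 36 members were called higher and 0 lower, against 31.5% and 15.3% of all genes tested. Without wild-type replicate 3, 34 were higher and 0 lower (25.6% and 13.6% of all genes), 33 of them also among the 36. Without Daxx-null replicate 2 as well, 33 were higher and 0 lower (26% and 14.8%). The members' median log2 fold change was 2.02 against 0.20 for all genes, and 1.49 against 0.15 without replicate 3. In serum 3 members were higher and 11 lower (9.29% and 18.9% of all genes), with a median of -0.42 against -0.12. With retinoic acid 0 were higher and 5 lower (0.222% and 2.27%), with a median of -0.73 against -0.05.

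These counts moved with single libraries. For the counts in this paragraph the matching share of all genes called was not computed. Whether the moves are particular to the members was not tested. Without wild-type 2i replicate 3, which reaches serum and retinoic acid only through the shared spread, 20 members were lower in serum (Gbp2, Gbp2b, Gbp3, Gbp4, Ifit1, Oasl2, Lgals3bp, Isg15 and Socs1 were added) and 12 with retinoic acid (Cxcl10, Igtp, Bst2, Oas1b, Oasl2, Rtp4 and Parp14 were added). Without Daxx-null serum replicate 3, 7 were lower in serum, and without Daxx-null serum replicate 2, 1 was higher. With retinoic acid 1 was lower without wild-type replicate 3 and 3 without Daxx-null replicate 3. Fitting only the 6 libraries of 2i left 23 called higher there, and Irgm1, Ifit1, Ifit3, Oas1b, Oas2, Oasl1, Isg20, Rtp4, Isg15, Dtx3l, Trim21, Usp18 and Socs1 were lost.

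All 44 members passed the low-value filter, which asked for 3 or more libraries with 1 FPKM or more. For 7 of them (Gbp6, Ifit1, Ifit3, Mx1, Mx2, Rsad2 and Ifi44) fewer than 3 libraries outside Daxx-null 2i reached 1. These 7 passed only through Daxx-null 2i libraries, so the filter favoured a high level there. Among the other 37, 29 were called higher and 0 lower in 2i (27 and 0 without wild-type replicate 3). Scaling all libraries to the same quantiles brought the median of all genes from 0.20 to -0.03 in 2i and from -0.12 to about 0 in serum. Relative to that shift, 33 members were higher in 2i and 1, Irf8, was lower, while in serum 3 were higher and 7 lower. The share of all genes called after this scaling was not computed, so these counts have no background beside them.

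Libraries that do not overlap give a count without a model. All 3 Daxx-null libraries lay above all 3 wild-type libraries for 38 members in 2i (32.3% of all genes), 4 in serum (19.1%) and 1 in retinoic acid (9.75%). All 3 lay below for 0 in 2i (15.5%), 19 in serum (35.6%) and 29 in retinoic acid (17.7%). Set against wild-type 2i replicates 1 and 2 alone, all Daxx-null 2i libraries were higher for 39 members (35.7% of all genes), and the exceptions were Irf8, Ifitm1, Ifitm2, Oas1a and Trim25.

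Markers of other cell types also differed between the 2i groups. Of all genes, 31.5% were called higher and 15.3% lower there (25.6% and 13.6% without wild-type replicate 3). The fibroblast, macrophage and blood, and retinoic acid and neural markers called higher were a smaller share than that of all genes. Of 8 endoderm markers, 6 rose in Daxx-null 2i cells and 0 fell (4 and 0 without wild-type replicate 3), and their summed level was 234 to 354.7 FPKM against 38.93 to 95.33 in wild type. Of 7 tested trophoblast markers, 5 rose and 0 fell (5 and 0), with sums of 959.5 to 1053 against 384.8 to 475.6, and Elf5 did not pass the filter. Of 8 pluripotency markers, 5 fell and 0 rose (2 and 0), with sums of 8575 to 16710 against 20490 to 22350. Fibroblast markers gave 2 of 8 higher (1), with sums of 73.34 to 409.4 against 21.53 to 110.5, endothelial markers 2 of 5 higher and 1 lower (2 and 1), with sums of 266.5 to 375.6 against 541.2 to 584.7, and retinoic acid and neural markers 1 of 9 higher and 2 lower (1 and 1), with sums of 404 to 1955 against 836 to 891.9. Of 10 macrophage and blood markers, 5 were tested and 1, Lyz2, rose (0 without wild-type replicate 3, where it was at 1.47 (adjusted p = 0.101)), with sums of 76.66 to 130.5 against 75.65 to 93.16. Lyz2 was 2.35, 0 and 1.98 FPKM in Daxx-null 2i. Spi1, a myeloid factor, was 19.3, 20.2 and 16.2 FPKM in wild type and 40.8, 15.6 and 27.99 in Daxx-null in 2i, and Cd68 was 52.9, 51.6 and 73.3 FPKM in wild type and 83.1, 54.3 and 60.1 in Daxx-null, neither called. The defining leukocyte gene Ptprc was at most 0.344 FPKM in any library, and Adgre1, Aif1 and Fcgr1 were below 1 in all 18. In serum 4 of 8 endoderm, 4 of 8 fibroblast, 3 of 7 trophoblast and 2 of 5 endothelial markers fell in Daxx-null cells, and 1 endoderm marker rose. Of all genes, 18.9% fell in serum and 9.29% rose. Among macrophage and blood markers in serum, Cd68 rose from 66.2 ± 1.70 to 125 ± 6.18 FPKM (log2 fold change 0.91, SE 0.16, adjusted p = 0.000785) and Itgam fell (log2 fold change -1.20, SE 0.21, adjusted p = 0.000666), with sums of 124 to 137.5 against 73.81 to 77.51, and 1 neural marker rose and 1 fell (2 and 1 without wild-type 2i replicate 3). With retinoic acid 6 of 8 pluripotency, 3 of 8 endoderm and 3 of 5 endothelial markers fell (2.27% of all genes fell). The part of these other cell types in the members' differences was not tested.

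**Figure D2:**
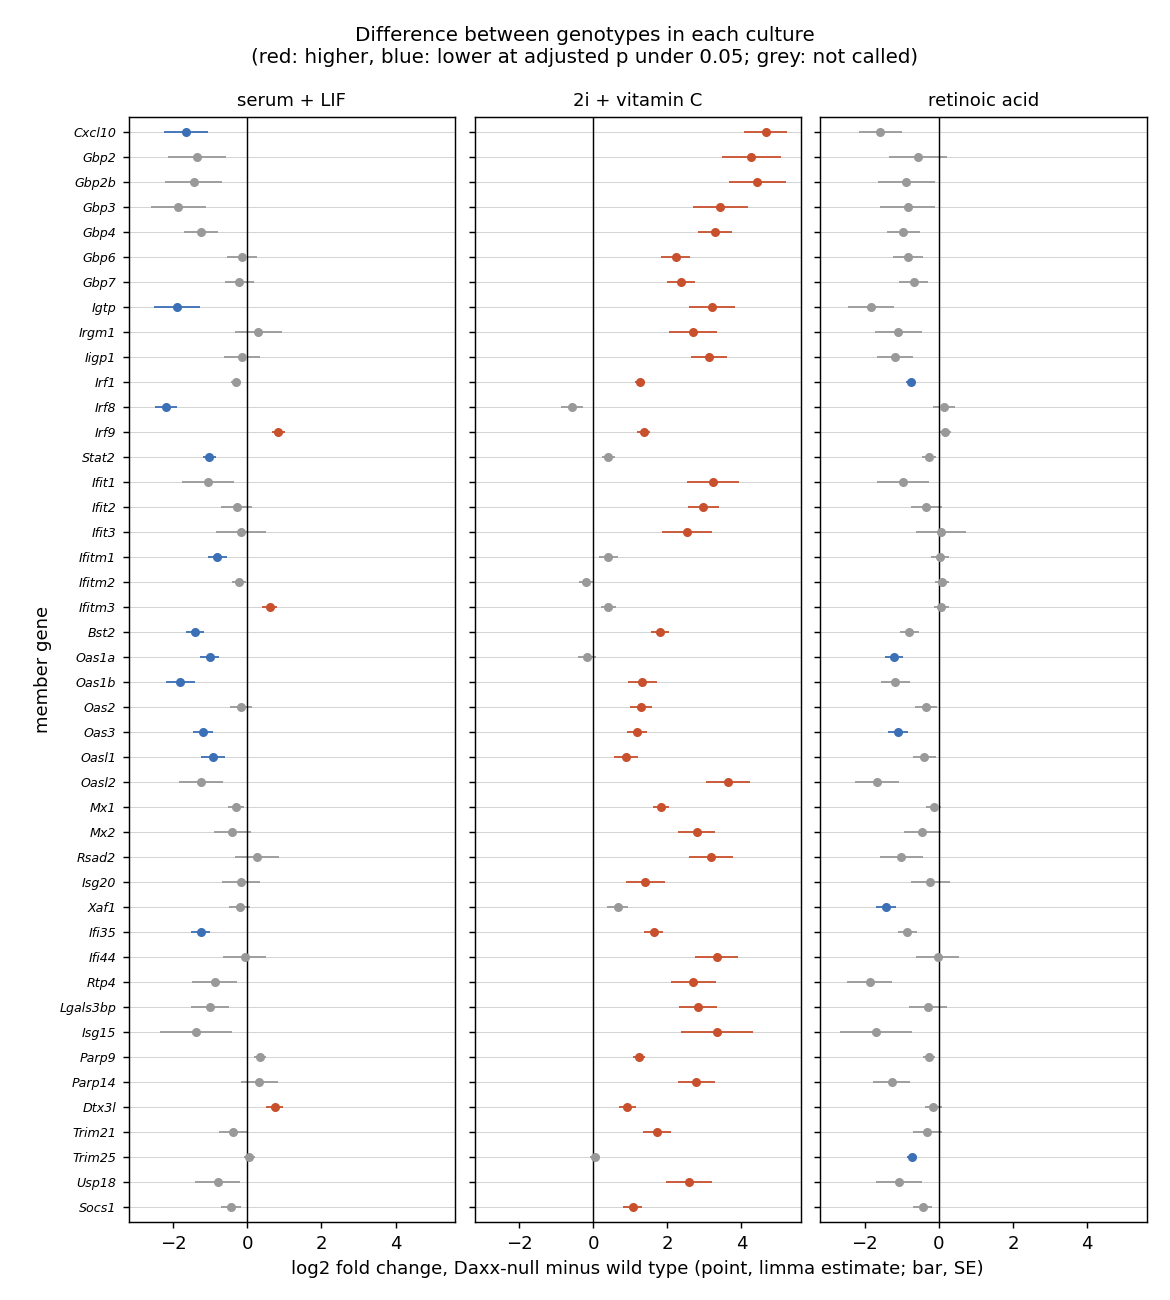
Log2 fold change of Daxx-null minus wild type (limma estimate, bars SE) for each member in serum, 2i and retinoic acid, in role order. In 2i 36 points are called higher, in serum 3 are called higher and 11 lower, and in retinoic acid 5 are called lower.

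Cxcl10 encodes a chemokine that attracts T cells, and guanylate-binding proteins (Gbp) are GTPases that act against microbes inside cells. All 7 members of this group rose in Daxx-null 2i cells, with log2 fold changes from 2.22 for Gbp6 to 4.65 for Cxcl10 (1.62 and 3.79 without wild-type replicate 3). Cxcl10 in 2i was 2.09, 2.99 and 0 FPKM in wild type and 31.1, 65.5 and 33.8 in Daxx-null. The serum libraries held Cxcl10 at 2.82, 2.39 and 1.67 FPKM in wild type and 0, 0.868 and 0.473 in Daxx-null. Retinoic acid libraries held Cxcl10 at 2.04, 1.68 and 4.62 FPKM in wild type and 0.635, 0.406 and 0.527 in Daxx-null. Its genotypes did not overlap in any culture, with Daxx-null above wild type in 2i and below it in the other 2. Cxcl10 rose in 2i (log2 fold change 4.65, SE 0.59, adjusted p = 1.96e-05), and by 3.79 (adjusted p = 2.23e-05) without wild-type replicate 3. It fell in serum (log2 fold change -1.66, SE 0.59, adjusted p = 0.0454) and was not called with retinoic acid (log2 fold change -1.58, SE 0.59, adjusted p = 0.234). The retinoic acid difference was called without wild-type 2i replicate 3 (adjusted p = 0.0409). Cxcl10 lost its serum call in 17 of 29 alternatives (adjusted p = 0.052 to 0.19): with a pseudocount of 0.1 or 2, without a low-value filter, after quantile scaling, in the authors' deposited table, after centring by chromosome and with 1 library left out (wild-type serum replicate 1, 2 or 3, Daxx-null serum replicate 1 or 3, Daxx-null 2i replicate 3, wild-type retinoic acid replicate 1 or 2 or Daxx-null retinoic acid replicate 1, 2 or 3).

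Gbp2, the most abundant of the 7, was 20.7, 19.9 and 1.08 FPKM in wild type and 128, 229 and 163 in Daxx-null in 2i. Serum libraries held Gbp2 at 31.9, 40.7 and 7.68 FPKM in wild type and 4.06, 11.2 and 11.6 in Daxx-null. With retinoic acid, Gbp2 was 3.91, 2.43 and 3.49 FPKM in wild type and 2.52, 1.67 and 1.92 in Daxx-null. Its Daxx-null 2i libraries were the 3 highest of all 18, and the genotypes overlapped in the other cultures. Gbp2 rose in 2i (log2 fold change 4.26, SE 0.79, adjusted p = 0.000464), and by 3.03 (adjusted p = 0.000715) without wild-type replicate 3. Gbp3 in 2i was 8.94, 10.5 and 0.393 FPKM in wild type and 35.2, 72.9 and 44.1 in Daxx-null. In serum, Gbp3 was 4.63, 7.33 and 1.58 FPKM in wild type and 0.141, 0.947 and 1.40 in Daxx-null, and all 3 Daxx-null values lay below the wild-type ones. With retinoic acid, Gbp3 was 0.299, 0.790 and 0.832 FPKM in wild type and 0.201, 0.114 and 0.056 in Daxx-null, also without overlap. Gbp3 rose in 2i (log2 fold change 3.43, SE 0.75, adjusted p = 0.00154, and 2.26 (adjusted p = 0.00339) without wild-type replicate 3), and its serum difference was not called (log2 fold change -1.86, SE 0.75, adjusted p = 0.075). That serum difference was called without wild-type 2i replicate 3 (adjusted p = 0.00705). Wild-type serum replicate 3 was below its sisters for Gbp2 and Gbp3, as it was for 29 of the 44 members. The matching share of all genes was not computed, so this count has no background beside it.

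Of the other 4, Gbp2b went from 10.2 ± 8.39 (SD, n = 3, as for all means below) in wild-type to 138 ± 34.1 FPKM in Daxx-null 2i cells. Gbp4, Gbp6 and Gbp7 stood at 18.5 ± 6.56, 6.71 ± 2.52 and 66.9 ± 24.96 FPKM in Daxx-null 2i cells, against 1.82 ± 1.45, 1.22 ± 0.966 and 13.1 ± 6.22 in wild type. These 4 rose by log2 4.43, 3.28, 2.22 and 2.37, and each was called without wild-type replicate 3 as well, at 3.13, 2.55, 1.62 and 1.90. Gbp2, Gbp2b, Gbp3 and Gbp7 lie within 108 kb on mm9 chromosome 3, and Gbp4 and Gbp6 within 178 kb on chromosome 5. Family members share sequence, and the sources used here do not say how reads with several placements were counted, so the split of signal among Gbp, Oas, Ifit, Ifitm and Mx genes is uncertain.

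Immunity-related GTPases act on the membranes around engulfed microbes, and all 3 members (Irgm1, Igtp and Iigp1) rose in Daxx-null 2i cells. Irgm1 in 2i was 40.9, 39.7 and 3.71 FPKM in wild type and 98.97, 179 and 106 in Daxx-null. In serum, Irgm1 was 12.5, 17.4 and 5.58 FPKM in wild type and 10.8, 14.1 and 15.3 in Daxx-null, with overlap. With retinoic acid, Irgm1 was 11.6, 15.9 and 10.4 FPKM in wild type and 5.31, 5.46 and 5.77 in Daxx-null, all Daxx-null libraries below wild type. Irgm1 rose in 2i (log2 fold change 2.69, SE 0.64, adjusted p = 0.00276), and by 1.60 (adjusted p = 0.00292) without wild-type replicate 3. Igtp in 2i was 15.8, 18.5 and 1.21 FPKM in wild type and 66.8, 97.96 and 62.2 in Daxx-null. In serum, Igtp was 16.1, 14.7 and 9.99 FPKM in wild type and 2.62, 3.69 and 3.38 in Daxx-null. With retinoic acid, Igtp was 9.92, 9.20 and 12.5 FPKM in wild type and 1.98, 2.53 and 3.39 in Daxx-null. Igtp thus did not overlap between genotypes in any culture. It rose in 2i (log2 fold change 3.21, SE 0.61, adjusted p = 0.000605), by 2.08 (adjusted p = 4.3e-05) without wild-type replicate 3, and fell in serum (log2 fold change -1.90, SE 0.61, adjusted p = 0.0301). The retinoic acid difference of Igtp was not called (log2 fold change -1.83, SE 0.61, adjusted p = 0.173). It was called without wild-type 2i replicate 3 (adjusted p = 0.000411), which enters here only through the shared spread. Iigp1 rose in 2i from 1.54 ± 1.10 to 17.1 ± 11.1 FPKM (log2 3.13, and 2.53 without wild-type replicate 3) and stayed under 1 FPKM in every serum library. Igtp lost its serum call in 7 of 29 alternatives (adjusted p = 0.0502 to 0.0944): without a low-value filter, after centring by chromosome and with 1 library left out (wild-type serum replicate 1 or 2 or Daxx-null serum replicate 1, 2 or 3).

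Of the 4 transcription factors, Irf1 and Irf9 rose in Daxx-null 2i cells and Irf8 and Stat2 were not called there. Irf1, an activator that binds ISRE-like sites, was 103, 107 and 85.4 FPKM in wild type and 233, 232 and 249 in Daxx-null in 2i. In serum, Irf1 was 142, 158 and 127 FPKM in wild type and 91.2, 134 and 122 in Daxx-null, with overlap. With retinoic acid, Irf1 was 54.8, 56.6 and 60.8 FPKM in wild type and 33.1, 30.3 and 39.1 in Daxx-null, all Daxx-null libraries lower. Irf1 rose in 2i (log2 fold change 1.27, SE 0.14, adjusted p = 5.63e-06), by 1.17 (adjusted p = 3.35e-05) without wild-type replicate 3, and fell with retinoic acid (log2 fold change -0.75, SE 0.14, adjusted p = 0.00602). Irf9, the DNA-binding subunit of the complex with Stat2, was 70.9, 67.9 and 39.9 FPKM in wild type and 144, 169 and 136 in Daxx-null in 2i. In serum, Irf9 was 34.9, 35.4 and 29.7 FPKM in wild type and 58.5, 61.6 and 59.5 in Daxx-null. With retinoic acid, Irf9 was 41.2, 41.8 and 34.8 FPKM in wild type and 44.8, 43.97 and 42.7 in Daxx-null. Its Daxx-null libraries lay above wild type in every culture, the only member of which this held. Irf9 rose in 2i (log2 fold change 1.36, SE 0.17, adjusted p = 1.75e-05, and 1.10 (adjusted p = 8.68e-06) without wild-type replicate 3) and in serum (log2 fold change 0.84, SE 0.17, adjusted p = 0.00182), and its retinoic acid difference was not called (adjusted p = 0.82).

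Irf8, a factor best known from myeloid blood cells, fell in serum and was not called in the other cultures. In serum, Irf8 was 22.6, 17.8 and 15.8 FPKM in wild type and 3.63, 4.63 and 2.86 in Daxx-null, with no overlap. Irf8 in 2i was 1.75, 1.34 and 2.73 FPKM in wild type and 1.55, 1.02 and 0.809 in Daxx-null, and with retinoic acid it was 14.6, 12.3 and 9.15 FPKM in wild type and 17.8, 13.5 and 9.13 in Daxx-null, with overlap in both. It fell in serum (log2 fold change -2.20, SE 0.30, adjusted p = 8.94e-05) and was not called in 2i (log2 fold change -0.57, SE 0.30, adjusted p = 0.128, and -0.35 (adjusted p = 0.391) without wild-type replicate 3) or with retinoic acid (log2 fold change 0.13, SE 0.30, adjusted p = 0.949). Quantile scaling, and the authors' deposited normalised table, called Irf8 lower in 2i as well. Stat2, a transcription factor of type I signalling, fell in serum from 97.3 ± 4.45 to 48.5 ± 11.8 FPKM (log2 fold change -1.03, SE 0.18, adjusted p = 0.000661). In 2i, Stat2 was 89.9 ± 17.7 against 120.5 ± 27.8 and not called (log2 fold change 0.41, SE 0.18, adjusted p = 0.0722), but it was called higher without wild-type replicate 3, at 0.57 (adjusted p = 0.0256).

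Ifit proteins bind viral RNA, and all 3 members, which lie within 99 kb on mm9 chromosome 19, rose in Daxx-null 2i cells. Ifit1 in 2i was 8.89, 9.51 and 0.232 FPKM in wild type and 22.8, 71.6 and 34.02 in Daxx-null. In serum, Ifit1 was 0.496, 0.746 and 0.818 FPKM in wild type and 0.069, 0.060 and 0.065 in Daxx-null. With retinoic acid, Ifit1 was 0.848, 0.402 and 0.692 FPKM in wild type and 0.132, 0 and 0.109 in Daxx-null. Below 1 FPKM outside 2i, Ifit1 still did not overlap between genotypes, with Daxx-null lower in serum and retinoic acid, and neither difference was called (adjusted p = 0.286 and 0.67). The serum difference was called without wild-type 2i replicate 3 (adjusted p = 0.0194), and the retinoic acid difference was not (adjusted p = 0.128). Ifit1 rose in 2i (log2 fold change 3.24, SE 0.70, adjusted p = 0.00153), and by 2.00 (adjusted p = 0.000566) without wild-type replicate 3. Ifit2 in 2i was 4.85, 5.00 and 0.928 FPKM in wild type and 17.7, 44.4 and 24.3 in Daxx-null. In serum, Ifit2 was 6.11, 5.89 and 5.36 FPKM in wild type and 5.12, 5.01 and 3.94 in Daxx-null. With retinoic acid, Ifit2 was 17.4, 18.8 and 18.1 FPKM in wild type and 11.9, 13.1 and 18.2 in Daxx-null. All 6 retinoic acid libraries lay above every serum library and every wild-type 2i library for Ifit2. It rose in 2i (log2 fold change 2.97, SE 0.42, adjusted p = 4.88e-05, and 2.33 (adjusted p = 3.75e-05) without wild-type replicate 3), as did Ifit3, from 3.48 ± 3.02 to 14.96 ± 6.74 FPKM (log2 2.52, and 1.35 without wild-type replicate 3).

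Membrane restriction factors included the 2 members with the highest FPKM, Ifitm2 and Ifitm3, and only Bst2 of the 4 was called higher in Daxx-null 2i cells. Bst2, also called tetherin, holds budding virus at the cell surface (NM_198095, mm9 chromosome 8, 74058161 to 74061336, minus strand). In serum, Bst2 was 619.9, 632 and 643 FPKM in wild type and 213, 252 and 253 in Daxx-null. Bst2 in 2i was 284, 294 and 128 FPKM in wild type and 755, 871 and 709.9 in Daxx-null. With retinoic acid, Bst2 was 60.00, 68.6 and 83.5 FPKM in wild type and 30.8, 42.1 and 49.7 in Daxx-null. Daxx-null cells held more Bst2 than wild type in 2i and less in serum and retinoic acid, without overlap in any culture. It fell in serum (log2 fold change -1.40, SE 0.24, adjusted p = 0.000641) and rose in 2i (log2 fold change 1.81, SE 0.24, adjusted p = 3.53e-05, and 1.42 (adjusted p = 2.26e-05) without wild-type replicate 3). Ifitm2, of the family that blocks virus fusion, was 1122, 1137 and 1378 FPKM in wild type and 1467, 743 and 1095 in Daxx-null in 2i. In serum, Ifitm2 was 1909, 1865 and 2007 FPKM in wild type and 1999, 1551 and 1450.1 in Daxx-null. With retinoic acid, Ifitm2 was 943, 892 and 916 FPKM in wild type and 885, 875 and 1156 in Daxx-null. Its genotypes overlapped in every culture and no difference was called (adjusted p = 0.417, 0.434 and 0.964 in serum, 2i and retinoic acid).

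Ifitm1 fell in Daxx-null serum cells, from 661 ± 70.3 to 379.6 ± 62.3 FPKM (log2 fold change -0.81, SE 0.25, adjusted p = 0.0238), while Ifitm3 rose, from 1009 ± 135 to 1538 ± 266 (log2 fold change 0.60, SE 0.20, adjusted p = 0.0356). The 3 Ifitm genes lie within 56 kb on mm9 chromosome 7. Ifitm1 and Ifitm3 were not called in 2i (adjusted p = 0.184 and 0.105). Ifitm1 lost its serum call in 5 of 29 alternatives (adjusted p = 0.053 to 0.0882): without a low-value filter, after median-ratio scaling and with 1 library left out (wild-type serum replicate 3 or Daxx-null serum replicate 2 or 3). Ifitm3 lost its serum call in 7 of 29 alternatives (adjusted p = 0.0554 to 0.154): without a low-value filter, after quantile scaling, in the authors' deposited table and with 1 library left out (wild-type serum replicate 1 or 2 or Daxx-null serum replicate 1 or 2).

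OAS enzymes sense double-stranded RNA, and those of the family that are active make the signal that activates RNase L. Of 6 members 5 rose in Daxx-null 2i cells and 4 fell in serum. Oasl2 in 2i was 39.9, 37.3 and 4.19 FPKM in wild type and 216, 279.6 and 226 in Daxx-null. In serum, Oasl2 was 3.68, 3.91 and 2.24 FPKM in wild type and 0.669, 1.44 and 1.16 in Daxx-null. With retinoic acid, Oasl2 was 0.797, 1.62 and 1.88 FPKM in wild type and 0, 0 and 0.299 in Daxx-null. The genotypes did not overlap, and Daxx-null was higher in 2i only. Oasl2 rose in 2i (log2 fold change 3.64, SE 0.59, adjusted p = 0.00016, and 2.62 (adjusted p = 3.29e-05) without wild-type replicate 3), and the serum and retinoic acid differences were not called (adjusted p = 0.128 and 0.198). Both of these were called lower without wild-type 2i replicate 3 (adjusted p = 0.00432 and 0.00363). Oas1b in 2i was 8.39, 10.7 and 2.34 FPKM in wild type and 12.4, 25.5 and 12.9 in Daxx-null. In serum, Oas1b was 4.94, 3.94 and 4.19 FPKM in wild type and 1.05, 0.650 and 0.992 in Daxx-null. With retinoic acid, Oas1b was 2.45, 2.67 and 2.45 FPKM in wild type and 0.903, 0.770 and 0.829 in Daxx-null. Again no culture overlapped. Oas1b fell in serum (log2 fold change -1.81, SE 0.40, adjusted p = 0.00334) and rose in 2i (log2 fold change 1.33, SE 0.40, adjusted p = 0.0125), and without wild-type replicate 3 it was at 0.72 (adjusted p = 0.0534). Oas1b lost its 2i call in 6 of 29 alternatives (adjusted p = 0.0534 to 0.163): after quantile scaling, in the authors' deposited table, with only the compared libraries fitted, without wild-type 2i replicate 3 and Daxx-null 2i replicate 2 together and with 1 library left out (wild-type 2i replicate 3 or Daxx-null 2i replicate 2).

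The other OAS genes differed among themselves. Oas1a was high in 2i in both genotypes, at 105 ± 15.3 FPKM in wild type and 92.8 ± 12.4 in Daxx-null, and not called there (log2 fold change -0.17, SE 0.25, adjusted p = 0.596). It fell in serum, from 15.3 ± 1.64 to 7.48 ± 2.11 FPKM (log2 fold change -1.01, SE 0.25, adjusted p = 0.00717), and with retinoic acid, from 0.890 ± 0.431 to 0.090 ± 0.124 (log2 fold change -1.21, SE 0.25, adjusted p = 0.0138). Oas3 rose in 2i, from 1.93 ± 0.317 to 5.02 ± 1.02 FPKM, and fell in serum, from 13.3 ± 1.68 to 5.50 ± 0.954, and with retinoic acid, from 0.847 ± 0.441 to 0.119 ± 0.147 (log2 1.18, -1.20 and -1.10, with 1.07 in 2i without wild-type replicate 3; adjusted p = 0.00229, 0.00385 and 0.0422). Oas2 rose in 2i by log2 1.30 (0.84 without wild-type replicate 3), and Oasl1 by 0.89, the latter not called without wild-type replicate 3 at 0.58 (adjusted p = 0.152). Oasl1 also fell in serum (log2 -0.93, adjusted p = 0.0392). Oas1a, Oas1b, Oas2 and Oas3 lie within 177 kb on mm9 chromosome 5.

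Several OAS calls were lost under other settings. Oas1a lost its serum call in 3 of 29 alternatives (adjusted p = 0.0525 to 0.118): with a pseudocount of 0.1, after quantile scaling and in the authors' deposited table. Oas1a lost its retinoic acid call in 7 of 29 alternatives (adjusted p = 0.0597 to 0.291): with a pseudocount of 2, after quantile scaling, in the authors' deposited table, with only the compared libraries fitted and with 1 library left out (wild-type retinoic acid replicate 3 or Daxx-null retinoic acid replicate 2 or 3). Oas3 lost its serum call in 1 of 29 alternatives (adjusted p = 0.0537): after quantile scaling. Oas3 lost its 2i call in 2 of 29 alternatives (adjusted p = 0.171 to 0.222): after quantile scaling and in the authors' deposited table. Oas3 lost its retinoic acid call in 18 of 29 alternatives (adjusted p = 0.0526 to 0.27): with a pseudocount of 2, after quantile scaling, in the authors' deposited table, with only the compared libraries fitted, with the replicate block and with 1 library left out (wild-type serum replicate 1, 2 or 3, Daxx-null serum replicate 1, 2 or 3, wild-type 2i replicate 1 or 2, Daxx-null 2i replicate 3, wild-type retinoic acid replicate 1 or 3 or Daxx-null retinoic acid replicate 1 or 3). Oasl1 lost its serum call in 13 of 29 alternatives (adjusted p = 0.0501 to 0.309): with a pseudocount of 0.1, without a low-value filter, after quantile scaling, after median-ratio scaling, in the authors' deposited table, with only the compared libraries fitted, after centring by chromosome and with 1 library left out (wild-type serum replicate 1, 2 or 3, Daxx-null serum replicate 2 or 3 or Daxx-null retinoic acid replicate 2). Oasl1 lost its 2i call in 10 of 29 alternatives (adjusted p = 0.0518 to 0.241): with a pseudocount of 0.1, after quantile scaling, after median-ratio scaling, in the authors' deposited table, with only the compared libraries fitted, after centring by chromosome, without wild-type 2i replicate 3 and Daxx-null 2i replicate 2 together and with 1 library left out (wild-type 2i replicate 3 or Daxx-null 2i replicate 2 or 3).

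Mx1, Mx2, Rsad2, Isg20, Xaf1, Ifi35, Ifi44, Rtp4 and Lgals3bp form a mixed group of 9 effectors, of which 8 rose in Daxx-null 2i cells. Xaf1, a partner of the apoptosis inhibitor Xiap and the most abundant of the 9, was 186, 179 and 121 FPKM in wild type and 235, 309.96 and 223 in Daxx-null in 2i. In serum, Xaf1 was 40.8, 34.1 and 36.99 FPKM in wild type and 40.7, 29.3 and 28.04 in Daxx-null. With retinoic acid, Xaf1 was 2.12, 1.99 and 4.45 FPKM in wild type and 1.17, 0.641 and 0.375 in Daxx-null. Its 2i libraries did not overlap, but the difference was not called (log2 fold change 0.67, SE 0.28, adjusted p = 0.0615), and Xaf1 fell with retinoic acid (log2 fold change -1.43, SE 0.28, adjusted p = 0.0094). Ifi35 in 2i was 35.9, 37.97 and 23.3 FPKM in wild type and 106, 95.9 and 95.4 in Daxx-null. In serum, Ifi35 was 20.1, 16.8 and 15.1 FPKM in wild type and 6.94, 8.14 and 5.81 in Daxx-null. With retinoic acid, Ifi35 was 10.2, 7.36 and 10.9 FPKM in wild type and 3.28, 7.23 and 5.12 in Daxx-null. None of the 3 cultures overlapped for Ifi35, which rose in 2i (log2 fold change 1.63, SE 0.25, adjusted p = 0.000112, and 1.41 (adjusted p = 0.000646) without wild-type replicate 3) and fell in serum (log2 fold change -1.26, SE 0.25, adjusted p = 0.00176). Xaf1 lost its retinoic acid call in 5 of 29 alternatives (adjusted p = 0.0545 to 0.149): with a pseudocount of 2, after quantile scaling, in the authors' deposited table, with only the compared libraries fitted and with 1 library left out (wild-type retinoic acid replicate 3).

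Ifi44, named for its induction by interferon, was at or near 0 outside 2i. Ifi44 in 2i was 4.67, 6.16 and 0.281 FPKM in wild type and 17.8, 56.1 and 25.8 in Daxx-null. In serum, Ifi44 was 0.082, 0 and 0 FPKM in wild type and 0, 0 and 0 in Daxx-null. With retinoic acid, Ifi44 was 0.030, 0 and 0.057 FPKM in wild type and 0, 0 and 0.050 in Daxx-null. Ifi44 rose in 2i (log2 fold change 3.33, SE 0.58, adjusted p = 0.000276, and 2.36 (adjusted p = 0.000108) without wild-type replicate 3). Rtp4, which encodes a receptor-transporting protein, was 30.04, 31.7 and 3.89 FPKM in wild type and 98.8, 149.6 and 78.6 in Daxx-null in 2i. In serum, Rtp4 was 0.757, 1.04 and 0.549 FPKM in wild type and 0, 0.807 and 0 in Daxx-null. With retinoic acid, Rtp4 was 1.97, 1.84 and 3.59 FPKM in wild type and 0.111, 0.189 and 0.643 in Daxx-null. Rtp4 rose in 2i (log2 fold change 2.70, SE 0.61, adjusted p = 0.00203, and 1.75 (adjusted p = 0.00509) without wild-type replicate 3), and its retinoic acid difference, without overlap, was not called (log2 fold change -1.87, SE 0.61, adjusted p = 0.153). That retinoic acid difference was called without wild-type 2i replicate 3 (adjusted p = 0.0121).

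Among the remaining 5, Mx1 and Mx2 rose in 2i from 0.685 ± 0.282 to 3.63 ± 0.470 FPKM and from 2.72 ± 2.22 to 16.8 ± 3.76. Both belong to a family of dynamin-like GTPases, but their entries here are non-coding RefSeq records. Rsad2, which encodes viperin, rose from 3.23 ± 2.74 to 23.9 ± 9.06 FPKM. Lgals3bp, a secreted glycoprotein, rose from 12.3 ± 8.55 to 75.5 ± 27.1 FPKM. These 4 had log2 fold changes of 1.82, 2.80, 3.18 and 2.84 (1.62, 1.95, 2.15 and 2.10 without wild-type replicate 3). Isg20, an exonuclease, rose by log2 1.40 (adjusted p = 0.0371) and was not called without wild-type replicate 3, at 0.93 (adjusted p = 0.182). Mx1, Mx2 and Rsad2 stayed under 1 FPKM in every serum library. Isg20 lost its 2i call in 11 of 29 alternatives (adjusted p = 0.0506 to 0.261): with a pseudocount of 0.1, without a low-value filter, after quantile scaling, after median-ratio scaling, in the authors' deposited table, with only the compared libraries fitted, after centring by chromosome, without wild-type 2i replicate 3 and Daxx-null 2i replicate 2 together and with 1 library left out (wild-type 2i replicate 3 or Daxx-null 2i replicate 2 or 3).

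The protein-modifying group holds Isg15, a ubiquitin-like protein that is attached to other proteins, the ubiquitin ligases Trim21 and Trim25, and Parp9, Parp14 and Dtx3l of ADP-ribosylation; 5 of the 6 rose in Daxx-null 2i cells. Isg15 (NM_015783, mm9 chromosome 4, 155573533 to 155574927, minus strand) was 71.5, 80.95 and 1.76 FPKM in wild type and 255, 241 and 222 in Daxx-null in 2i. In serum, Isg15 was 3.32, 4.50 and 1.15 FPKM in wild type and 1.09, 0.105 and 1.38 in Daxx-null. With retinoic acid, Isg15 was 1.49, 1.69 and 2.09 FPKM in wild type and 0, 0.787 and 0 in Daxx-null. Wild-type 2i replicates 1 and 2 stood far above every serum and retinoic acid library, replicate 3 did not, and the Daxx-null 2i libraries were higher again. Isg15 rose in 2i (log2 fold change 3.34, SE 0.97, adjusted p = 0.0104), and by 1.64 (adjusted p = 0.0221) without wild-type replicate 3. Trim25, which ubiquitinates the RNA sensor RIG-I, was 549.7, 549.98 and 382 FPKM in wild type and 457, 503 and 569.7 in Daxx-null in 2i. In serum, Trim25 was 427, 406 and 391 FPKM in wild type and 465, 408 and 402 in Daxx-null. With retinoic acid, Trim25 was 75.2, 71.8 and 96.1 FPKM in wild type and 50.7, 49.9 and 45.7 in Daxx-null. Trim25 overlapped between genotypes in serum and 2i and fell with retinoic acid (log2 fold change -0.72, SE 0.14, adjusted p = 0.00804). Trim25 lost its retinoic acid call in 2 of 29 alternatives (adjusted p = 0.0545 to 0.0635): with only the compared libraries fitted and with 1 library left out (wild-type retinoic acid replicate 3).

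Parp9 and Dtx3l, whose proteins form a complex, lie with Parp14 within 140 kb on mm9 chromosome 16. Dtx3l rose in 2i, from 48.8 ± 14.4 to 91.5 ± 23.2 FPKM (log2 0.92, and 0.64 without wild-type replicate 3), and in serum, from 32.4 ± 7.12 to 53.4 ± 4.21 (log2 fold change 0.74, SE 0.23, adjusted p = 0.0234). Parp9 rose in 2i, from 70.8 ± 11.97 to 168 ± 24.3 FPKM (log2 1.24, and 1.10 without wild-type replicate 3), and its serum difference was not called (log2 fold change 0.34, SE 0.16, adjusted p = 0.131), although its serum libraries did not overlap and quantile scaling called it higher. Parp14 rose by log2 2.78 in 2i and Trim21 by 1.73, and both were called without wild-type replicate 3, at 1.94 and 1.11. Dtx3l lost its serum call in 3 of 29 alternatives (adjusted p = 0.0569 to 0.12): with 1 library left out (wild-type serum replicate 3 or Daxx-null serum replicate 2 or 3). Dtx3l lost its 2i call in 2 of 29 alternatives (adjusted p = 0.0645 to 0.066): with only the compared libraries fitted and without wild-type 2i replicate 3 and Daxx-null 2i replicate 2 together.

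Both feedback inhibitors rose in Daxx-null 2i cells. Usp18, which removes Isg15 from proteins and blocks the type I receptor, was 15.8, 11.4 and 1.10 FPKM in wild type and 30.8, 60.6 and 34.6 in Daxx-null in 2i. In serum, Usp18 was 1.01, 0.559 and 0.184 FPKM in wild type and 0.207, 0.090 and 0 in Daxx-null. With retinoic acid, Usp18 was 2.64, 3.45 and 3.44 FPKM in wild type and 1.48, 1.30 and 0.943 in Daxx-null. Usp18 rose in 2i (log2 fold change 2.59, SE 0.61, adjusted p = 0.00274, and 1.55 (adjusted p = 0.00282) without wild-type replicate 3), and Daxx-null libraries were below wild type with retinoic acid without a call (log2 fold change -1.08, SE 0.61, adjusted p = 0.53). Socs1, an inhibitor of Jak kinases, was 57.1, 60.3 and 23.3 FPKM in wild type and 104, 87.4 and 81.8 in Daxx-null in 2i. In serum, Socs1 was 37.05, 30.3 and 28.6 FPKM in wild type and 23.4, 26.1 and 20.7 in Daxx-null. With retinoic acid, Socs1 was 28.6, 31.9 and 32.7 FPKM in wild type and 25.1, 22.7 and 20.6 in Daxx-null. No culture overlapped for Socs1, and only the 2i difference was called (log2 fold change 1.06, SE 0.26, adjusted p = 0.00343, and 0.62 (adjusted p = 0.00401) without wild-type replicate 3). The serum difference was called lower without wild-type 2i replicate 3 (adjusted p = 0.0191), and the retinoic acid difference was not called (adjusted p = 0.0891).

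**Figure D3:**
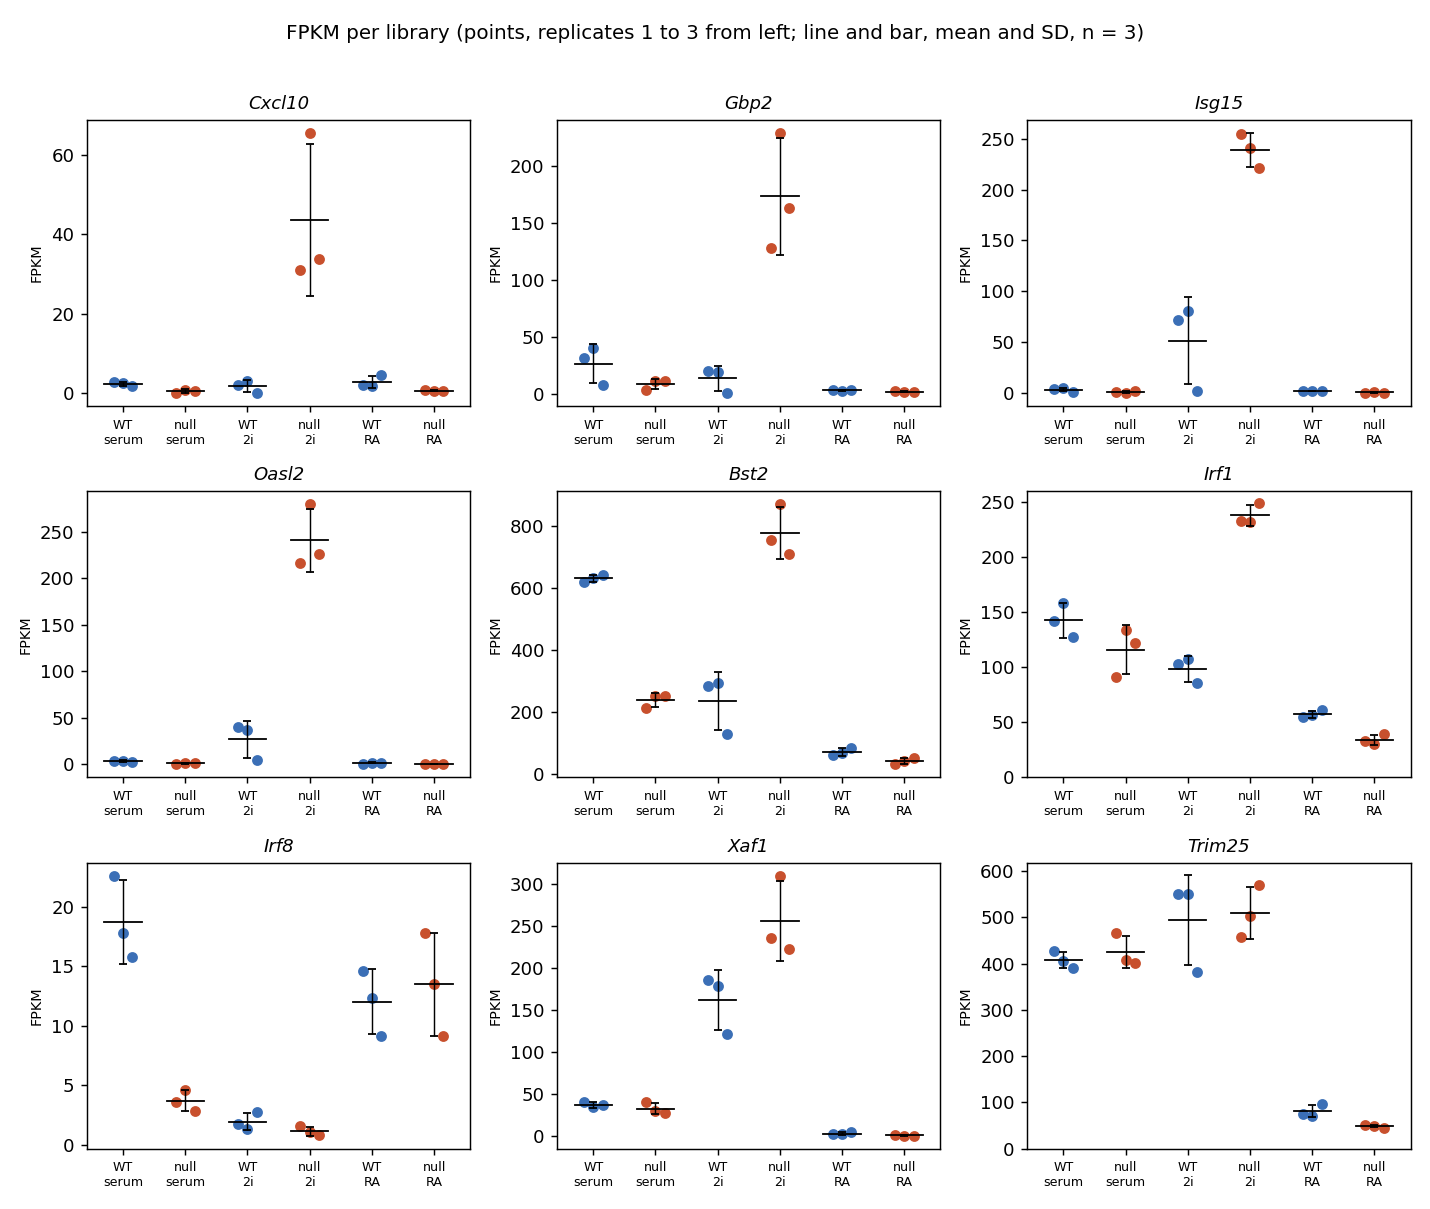
FPKM of 9 members in each of the 18 libraries (points, replicates 1 to 3 from left to right; line and bar, mean and SD, n = 3; linear axes that start at or below 0). Cxcl10, Gbp2, Isg15, Oasl2, Bst2, Irf1 and Xaf1 have their highest points in Daxx-null 2i, Irf8 in wild-type serum, and Trim25 is lowest with retinoic acid in both genotypes.

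Wild-type 2i replicate 3 was at or within the range of the wild-type serum libraries, or below it, for 29 members and above all 3 of them for 15 (34.8% of all genes tested). Replicates 1 and 2 were both above all wild-type serum libraries for 29 members and both below for 8, against 39.2% and 35.1% of all genes. Replicate 3 was below 0.5 times its sisters' mean for 29 members, 65.91%, against 20.64% of all genes tested. It was below 0.2 times that mean for 21 members (share of all genes not computed). The median member was 3.463 times higher in the sisters. For Isg15 the 3 replicates were 71.5, 80.95 and 1.76 FPKM, for Oasl2 39.9, 37.3 and 4.19 and for Usp18 15.8, 11.4 and 1.10. Irf8, Stat2, Ifitm1, Ifitm2 and Ifitm3 were instead higher in replicate 3 than in both sisters. The 3 wild-type 2i libraries had similar depths, 105.0, 91.8 and 98.3 M units, and pluripotency sums of 20490 to 22350 FPKM. The fibroblast sum was 21.53 FPKM in replicate 3 against 110.5 and 101.7 in replicates 1 and 2, and the endoderm sum 38.93 against 95.33 and 91.4; what set replicate 3 apart was not tested.

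**Figure D4:**
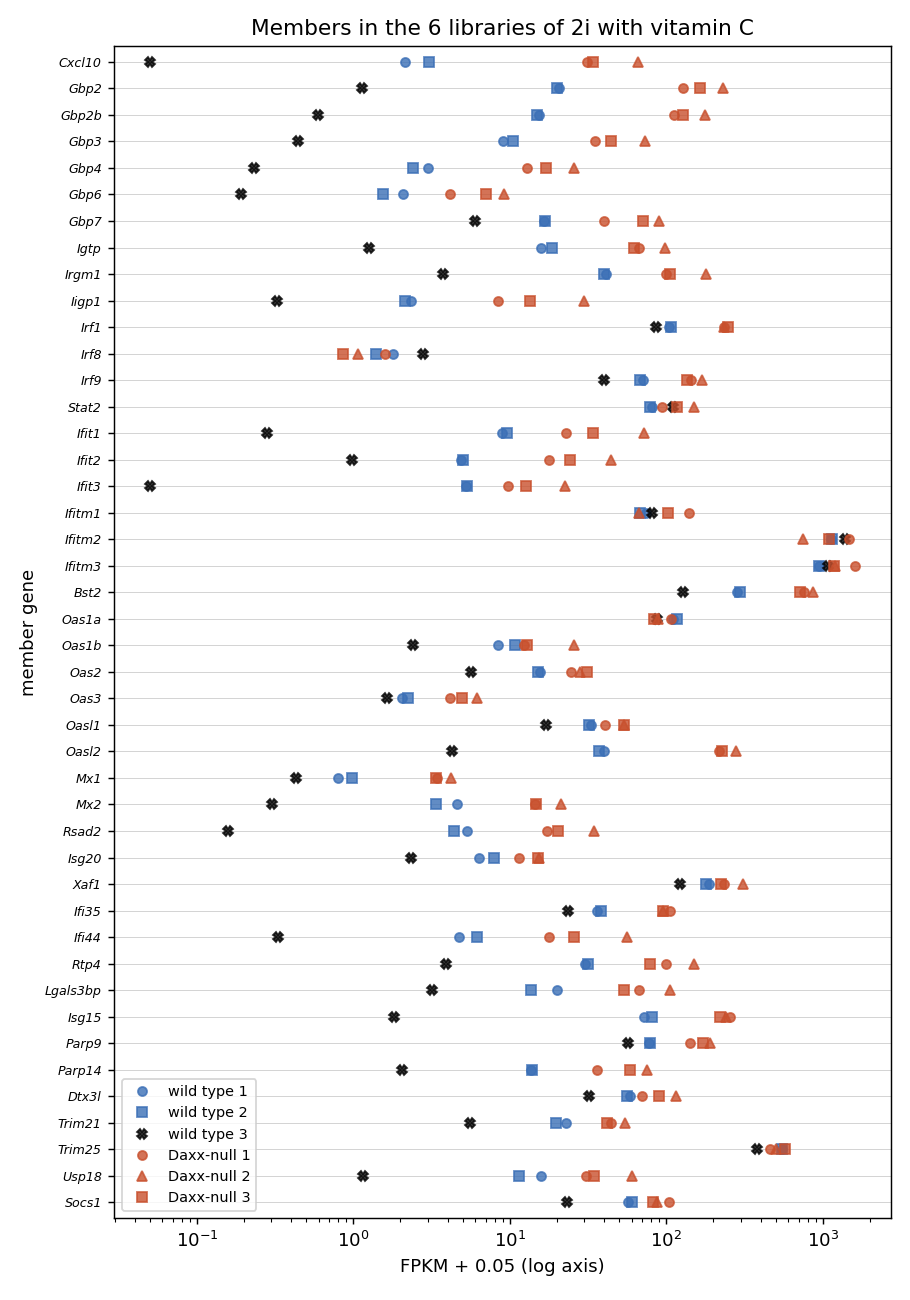
FPKM of each member in the 6 libraries of 2i with vitamin C (log axis, 0.05 added so that values of 0 can be drawn). Wild-type replicate 3 (black crosses) lies to the left of wild-type replicates 1 and 2 (blue) for 39 members, and the 3 Daxx-null libraries (red) lie to the right of all wild-type libraries for 38.

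The Daxx-null difference in 2i was tested against that in serum within the same fit. It was higher in 2i for 36 members and lower for 0, against 31.5% and 11.5% of all genes, and for 36 and 0 without wild-type replicate 3 (29.8% and 12.4%). Without Daxx-null 2i replicate 2 as well, 35 were higher and 0 lower (31.2% and 13.3%). The median difference was 2.52 against 0.34 for all genes, and 1.92 against 0.30 without wild-type replicate 3. Of the 36, 7 passed the low-value filter only through Daxx-null 2i, and among the other 37 members 29 were higher and 0 lower. It was largest for Cxcl10 (log2 6.31, SE 0.83, adjusted p = 3.86e-05, and 5.45 (adjusted p = 1.23e-05) without wild-type replicate 3). Irf9, Ifitm2, Ifitm3, Oas1a, Isg20, Xaf1, Dtx3l and Trim25 were not called with or without it. Y-linked RNA was near 0 in Daxx-null serum libraries but not in Daxx-null 2i libraries. Culture and this difference between the Daxx-null groups cannot be told apart in the 2i minus serum values. The retinoic acid difference exceeded that in serum for Irf8 (log2 2.33, adjusted p = 0.00361) and fell short of it for Trim25 (-0.77, adjusted p = 0.0227), 1 member each way against 4.82% and 3.38% of all genes. Without wild-type 2i replicate 3, which enters only the shared estimate of spread here, 2 were higher and 6 lower (share of all genes not computed). Leaving out wild-type serum replicate 3, Daxx-null serum replicate 1, wild-type retinoic acid replicate 3 or Daxx-null retinoic acid replicate 3 left 0 lower, 2 were lower without Daxx-null retinoic acid replicate 1, and 2 were higher without Daxx-null 2i replicate 2.

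Some calls of the difference between cultures were lost under other settings. Irgm1 lost its 2i minus serum call in 16 of 29 alternatives (adjusted p = 0.0505 to 0.1): without a low-value filter, after quantile scaling, after median-ratio scaling, in the authors' deposited table, with only the compared libraries fitted, after centring by chromosome, without wild-type 2i replicate 3 and Daxx-null 2i replicate 2 together and with 1 library left out (wild-type serum replicate 1 or 2, Daxx-null serum replicate 1, 2 or 3, Daxx-null 2i replicate 2 or 3, wild-type retinoic acid replicate 1 or Daxx-null retinoic acid replicate 2). Ifit3 lost its 2i minus serum call in 10 of 29 alternatives (adjusted p = 0.0522 to 0.077): with a pseudocount of 0.1, without a low-value filter, after quantile scaling, in the authors' deposited table, with only the compared libraries fitted and with 1 library left out (wild-type serum replicate 1 or 2, Daxx-null serum replicate 1 or 2 or Daxx-null 2i replicate 2). Irf8 lost its 2i minus serum call in 2 of 29 alternatives (adjusted p = 0.251 to 0.513): after quantile scaling and in the authors' deposited table. Oas2 lost its 2i minus serum call in 2 of 29 alternatives (adjusted p = 0.197 to 0.237): after quantile scaling and in the authors' deposited table. Oasl1 lost its 2i minus serum call in 2 of 29 alternatives (adjusted p = 0.0604 to 0.0925): after quantile scaling and in the authors' deposited table. Trim25 lost its retinoic acid minus serum call in 5 of 29 alternatives (adjusted p = 0.0504 to 0.0613): in the authors' deposited table and with 1 library left out (wild-type serum replicate 3, Daxx-null serum replicate 1, wild-type retinoic acid replicate 3 or Daxx-null retinoic acid replicate 3).

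In wild-type cells the members also differed between cultures. From serum to 2i, 21 rose and 6 fell (24.7% and 24.8% of all genes), and 28 rose and 6 fell without wild-type replicate 3 (27.4% and 22.6%). Without Daxx-null 2i replicate 2 as well, 29 rose and 6 fell (30.6% and 26.4%). Among the 37 members that passed the low-value filter through other libraries than Daxx-null 2i, 14 rose and 6 fell. Deviations of same-numbered wild-type serum and 2i libraries were correlated (0.146, 0.171 and 0.326), so the replicate number was also fitted as a block. With the block, 21 rose and 6 fell in the fit of all libraries. With only these 6 libraries fitted, a setting chosen after seeing the data, 16 rose and 7 fell. Those that rose were led by Rtp4 (log2 3.68), Isg15 (2.91), Oas1a (2.73) and Usp18 (2.71), at 4.63, 4.60, 2.85 and 3.75 without wild-type replicate 3, and all 9 of the mixed effector group were among them. The 6 that fell were Ifitm1 (-3.15), Irf8 (-3.00), Oas3 (-2.50), Bst2 (-1.52), Ifitm2 (-0.67) and Irf1 (-0.53). These 6 were at -3.21, -3.22, -2.40, -1.13, -0.77 and -0.43 without wild-type replicate 3. The number that rose was 12 without either replicate 1 or replicate 2 of wild-type 2i, and 10 when only the wild-type serum and 2i libraries were fitted. Isg15 lost its wild-type 2i minus serum call in 4 of 29 alternatives (adjusted p = 0.0817 to 0.141): with only the compared libraries fitted and with 1 library left out (wild-type serum replicate 3 or wild-type 2i replicate 1 or 2). Of the mixed effector group, Rsad2 lost this call in 8 of 29 alternatives, Mx2 and Isg20 in 4 each and Lgals3bp in 3. Mx1, Mx2, Rsad2 and Ifi44 of that group passed the low-value filter only through Daxx-null 2i. Mx1 was under 1 FPKM in every wild-type serum and 2i library.

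From serum to retinoic acid, 20 members fell and 3 rose in wild type (34.1% and 30.4% of all genes). Oas2 (log2 -3.89), Xaf1 (-3.57), Oas1a (-3.55) and Ifitm1 (-3.54) fell the most, and Trim25 fell by 2.34. Usp18 (1.83), Ifit2 (1.57) and Gbp6 (1.09, under 1 FPKM in both groups) rose. Without wild-type 2i replicate 3, 5 rose and 23 fell, and 1 rose without wild-type serum replicate 3. Shares of all genes were not computed for these fits. All comparisons with wild-type serum share its 3 libraries. Gbp6 lost its wild-type retinoic acid minus serum call in 4 of 29 alternatives (adjusted p = 0.0564 to 0.124): with a pseudocount of 2 and with 1 library left out (wild-type serum replicate 3 or wild-type retinoic acid replicate 2 or 3). Usp18 lost its wild-type retinoic acid minus serum call in 2 of 29 alternatives (adjusted p = 0.0564 to 0.0661): with a pseudocount of 2 and with 1 library left out (wild-type serum replicate 3).

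Genes upstream of the members were taken from a list of known pathway genes. Counts of called genes below stand beside these shares of all genes. In 2i 31.5% were higher and 15.3% lower, in serum 9.29% and 18.9%, and with retinoic acid 0.222% and 2.27%. A count near its share is not particular to the list. Of 21 interferon genes, 15 were at 0 in all 18 libraries, the highest single value was 2.375 FPKM, and none passed the filter. Their summed level was 0.79 to 2.681 FPKM in Daxx-null 2i, 0 to 0.583 in wild-type 2i and 0.223 to 1.973 in Daxx-null serum. Each of these sums rests on few counting units.

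Of 6 receptor chains, 5 rose in Daxx-null 2i cells and Ifnlr1 fell (4 and 0 without wild-type replicate 3), and 4 fell in serum. The rises in 2i were Ifnar1 (log2 0.52) and Ifnar2 (0.87) of the type I receptor, Ifngr1 (0.69) and Ifngr2 (1.23) of the gamma receptor, and Il10rb (1.43), which also serves the lambda receptor. Without wild-type replicate 3, Ifnar1, Ifnar2, Ifngr1 and Il10rb were called at 0.51, 0.86, 0.66 and 1.59. Ifngr2 was then at 0.75 (adjusted p = 0.0532) and Ifnlr1 at -0.49 (adjusted p = 0.153). In serum Ifnar2 (-0.47), Ifngr1 (-0.61), Ifnlr1 (-1.07) and Il10rb (-0.75) fell. No receptor was called with retinoic acid.

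Of 8 kinases and transcription factors, 4 rose and 1 fell in 2i, 2 fell in serum and 1 with retinoic acid. Irf7, the factor that drives late interferon production, was 17.8, 17.9 and 1.85 FPKM in wild type and 46.6, 72.4 and 50.5 in Daxx-null in 2i (log2 fold change 2.60, SE 0.57, adjusted p = 0.00164, and 1.61 (adjusted p = 0.000863) without wild-type replicate 3). It was at most 1.83 FPKM in every serum and retinoic acid library. Irf2, a relative of Irf1 that can act as a repressor, was 3.58, 3.13 and 1.48 FPKM in wild type and 19.99, 39.1 and 23.8 in Daxx-null in 2i (log2 fold change 3.13, SE 0.31, adjusted p = 2.63e-06, and 2.81 without wild-type replicate 3). It fell in serum (log2 fold change -1.62, SE 0.31, adjusted p = 0.00122), as did the kinase Jak2 (log2 fold change -1.45, SE 0.22, adjusted p = 0.000202). Stat3 (0.48) and Jak1 (0.28) rose in 2i by less and Irf5 fell (-0.58). Without wild-type replicate 3, Stat3 was at 0.52 (adjusted p = 0.000144), Irf5 at -0.51 (adjusted p = 0.0314) and Jak1 at 0.27 (adjusted p = 0.0722). Stat3 fell with retinoic acid (log2 -0.33, adjusted p = 0.0223).

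Of 7 further inhibitors, Socs3, which restrains gp130 and LIF signalling, fell in all 3 cultures, with log2 fold changes of -0.91 in serum, -0.37 in 2i and -0.39 with retinoic acid (adjusted p = 9.58e-06, 0.00524 and 0.0402). Pias1, an inhibitor of cytokine signalling, fell in serum (-0.32) and rose in 2i (0.38), Trim24 rose in serum (0.34) and the phosphatase gene Ptpn6 rose in 2i (0.72). Without wild-type replicate 3, the 2i values were -0.37 (adjusted p = 0.0158) for Socs3, 0.32 (adjusted p = 0.0321) for Pias1 and 0.60 (adjusted p = 0.00875) for Ptpn6. The other 3 inhibitors were not called in any culture.

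**Figure D5:**
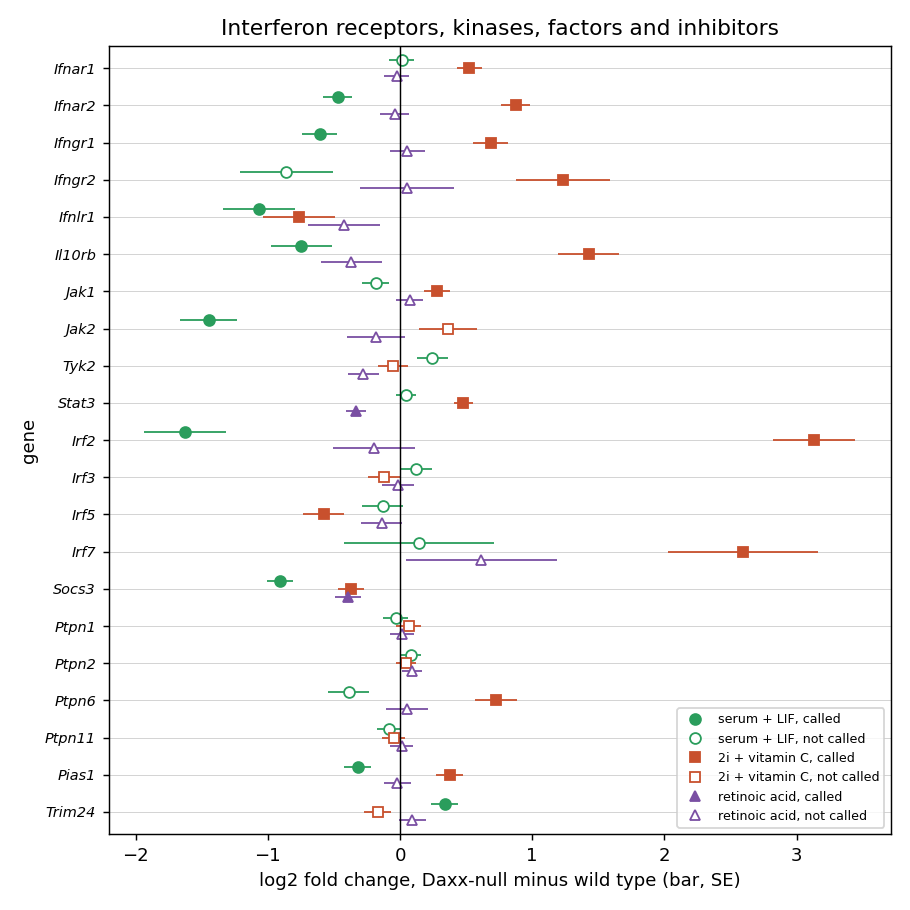
Log2 fold change of Daxx-null minus wild type (limma estimate, bars SE) for the 6 receptor chains, 8 kinases and transcription factors and 7 inhibitors, with filled symbols where called. Irf2, Irf7, Il10rb and Ifngr2 lie farthest to the right in 2i, and Irf2 and Jak2 farthest to the left in serum.

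A second list of 34 interferon-inducible genes that are not members, of which 33 matched and 30 were tested, was read the same way. In Daxx-null 2i cells 25 rose and 0 fell, against 31.5% and 15.3% of all genes, and 26 and 0 without wild-type replicate 3 (25.6% and 13.6%). Of the 30, 5 (Ifi47, Gbp5, Gbp10, Nlrc5 and Uba7) passed the filter only through Daxx-null 2i, so the filter favoured a high level there. Of the other 25, 20 rose and 0 fell. The median log2 fold change was 2.48 against 0.20 for all genes, and 1.80 against 0.15 without wild-type replicate 3. The largest were Gbp5 (3.57), the nucleic acid sensor gene Zbp1 (3.56) and Sp110 (3.48), and the smallest called were Ifi203 (1.11), Trim34a (1.26) and Oas1c (1.31). Without wild-type replicate 3 these 6 were at 3.19, 2.29, 2.73, 1.04, 0.89 and 0.87. In serum 0 rose and 6 fell (18.9% of all genes fell), from -2.12 for Oas1c, -1.95 for Ifi27 and -1.79 for Irgm2 to -1.68 for Ifi27l2a, -1.07 for Oas1g and -0.83 for Ifi30. With retinoic acid 0 rose and 3 fell (2.27% of all genes fell): Ifi203 (-1.16), Gbp9 (-1.01) and the cytidine deaminase gene Apobec3 (-0.58). Gbp5, Gbp9, Irgm2, Oas1c and Oas1g belong to families of members and share sequence with them.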

How the data were processed

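RNA was measured in 18 libraries of polyadenylated, ribosomal RNA-depleted RNA, primed with random hexamers per the labels' protocols. The submitters' processing notes name the mm9 build, HOMER 4.8, Bowtie2 2.2.6 and a limma of no given version. The authors deposited FPKM per gene and library, per the file headers, and these FPKM values are the measure used here. Recovered counting units came out whole (tolerance 0.1 of a unit) for 100% of the low values examined, when 1 FPKM was taken per 10 M units. That scale is inferred. A deposited table of log2 values, normalised by the authors, served as an alternative only. Strand use and the counting of reads with several placements were not stated in the sources used, so near-identical family members and overlapping genes cannot be told apart.

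Genes were kept with 1 FPKM or more in 3 or more libraries (18002 of 24505). limma 3.58.1 in R 4.3.3 was fitted to log2(FPKM + 0.5) with a mean-variance trend over 6 groups of 3, and p-values were adjusted by Benjamini-Hochberg over all genes tested, with a threshold of 0.05. The 44 members and all gene lists were chosen with earlier results of these data known. Values in every library are given for the member of each role group with the highest mean FPKM and the one with the largest absolute fold change in each culture, other members by means or counts, pathway genes where called, and the 3 largest and 3 smallest called changes of the other inducible genes. A gene of the pathway list is not reported here. The promoter stretches were chosen after the values were seen. Deviations of same-numbered libraries had correlations over genes of -0.162 to 0.154 between genotypes (-0.162, 0.103 and 0.154 in 2i). Between wild-type serum and 2i the correlations were 0.146, 0.171 and 0.326, and counts with the replicate number as a block are given beside that comparison. These ranges overlap, so they do not show that the genotypes were unpaired. The pairing comes from these data alone, and the fit itself has no block. Between wild-type serum and retinoic acid the correlations were 0.0198 to 0.0874. Replicates differed beyond sampling noise. Alternatives covered pseudocount, filter, scaling, libraries fitted, the block and each library in turn.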

Additional observations from a re-analysis of the deposited data

Results flagged for a closer look

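For 36 members the Daxx-null minus wild-type difference itself differed between 2i and serum, by the interaction term of the limma fit at an adjusted p under 0.05, and in each case it was more positive in 2i. The value given is the log2 difference in 2i minus that in serum, with the value without wild-type 2i replicate 3, a library far from its sisters, in parentheses. These 36 were called without that library too. Among the guanylate-binding proteins and Cxcl10 it was Cxcl10 6.31 (5.45), Gbp2b 5.88 (4.58), Gbp2 5.62 (4.38), Gbp3 5.29 (4.12), Gbp4 4.52 (3.79), Gbp7 2.59 (2.11) and Gbp6 2.37 (1.77). Among the immunity-related GTPases it was Igtp 5.11 (3.99), Iigp1 3.28 (2.68) and Irgm1 2.40 (1.30). Among the transcription factors it was Irf8 1.63 (1.85), Irf1 1.58 (1.48) and Stat2 1.44 (1.59). Among the Ifit genes it was Ifit1 4.30 (3.06), Ifit2 3.25 (2.61) and Ifit3 2.70 (1.53). Among the membrane factors it was Bst2 3.22 (2.83) and Ifitm1 1.22 (1.28). Among the OAS enzymes it was Oasl2 4.88 (3.87), Oas1b 3.13 (2.53), Oas3 2.38 (2.27), Oasl1 1.82 (1.51) and Oas2 1.47 (1.01). Among the mixed effector group it was Lgals3bp 3.85 (3.11), Rtp4 3.58 (2.63), Ifi44 3.40 (2.43), Mx2 3.21 (2.36), Rsad2 2.93 (1.89), Ifi35 2.89 (2.67) and Mx1 2.14 (1.94). Among the protein-modifying group it was Isg15 4.71 (3.02), Parp14 2.46 (1.63), Trim21 2.11 (1.49) and Parp9 0.91 (0.76). Among the feedback inhibitors it was Usp18 3.39 (2.35) and Socs1 1.50 (1.06). All 3 Daxx-null serum libraries were at 0 for Gbp6 and Ifi44, and below the pseudocount of 0.5 for Ifit1, Iigp1, Mx1, Mx2 and Usp18. The values of these genes, and of others near 0.5 FPKM in serum such as Ifit3 and Rtp4, depend on the pseudocount and are no bound. Between retinoic acid and serum, the same test singled out Irf8, with a difference of 2.33, and Trim25, with -0.77. The comparisons of 2i and retinoic acid share the serum libraries. Daxx-null serum and 2i libraries also differed in Y-linked RNA, near 0 in serum only. That difference and culture cannot be told apart in the 2i minus serum values.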

How the results depend on the processing

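No called fold change of a member reversed its direction under any alternative run. Over all member values under alternatives, 8510 kept their side of the threshold, 258 lost the call and 164 gained it. In serum the members called lower were 7 without a filter, 7 after quantile scaling and 21 without both wild-type 2i replicate 3 and Daxx-null 2i replicate 2, against 11. In 2i, 23 against 36 were called higher when only the compared libraries were fitted, and 1 against 0 was called lower after quantile scaling and in the deposited table. With retinoic acid 2 were called lower with a pseudocount of 2, after quantile scaling and in the deposited table, and 21 without both libraries, against 5. For the retinoic acid minus serum difference, 2 were lower with a pseudocount of 0.1, 3 after median-ratio scaling, 0 in the deposited table, 6 with only the compared groups, 5 after centring by chromosome and 8 without both libraries, against 1, while 2 with only the compared groups and 3 without both libraries were higher, against 1. In wild type, 10 (only the compared groups) and 29 (without both libraries) against 21 rose from serum to 2i, and 1 (pseudocount 2), 6 (only the compared groups) and 6 (without both libraries) against 3 rose with retinoic acid. For most of these settings, and those of the next paragraph, the share of all genes called was not computed. Whether the changes are particular to the members was not tested. The causes of these changes were not tested, except that fits of only the compared groups rest on fewer libraries.

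Leaving out 1 library at a time gave 1 to 3 higher and 7 to 20 lower in serum, 34 to 37 and 0 to 1 in 2i, and 0 and 1 to 12 with retinoic acid. It gave 34 to 38 and 0 for the 2i minus serum difference, 1 to 2 and 0 to 6 for the retinoic acid minus serum difference, 12 to 28 and 6 to 7 for wild-type 2i, and 1 to 5 and 18 to 23 for wild-type retinoic acid. With the replicate block in the fit, 3 and 11 were called in serum, 36 and 0 in 2i, 0 and 4 with retinoic acid, 37 and 0 for the 2i minus serum difference, 1 and 1 for the retinoic acid minus serum difference, 21 and 6 for wild-type 2i and 4 and 20 for wild-type retinoic acid. With only the paired wild-type serum and 2i libraries and the block, chosen after seeing the data, 16 rose and 7 fell. At this depth a value of 0 allows up to 0.346 FPKM, so fold changes of members under 1 FPKM are imprecise.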
